A study of Mus musculus with 18 samples.

Results

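The 9 genes described here, Cx3cr1, P2ry12, P2ry13, Tmem119, Selplg, Sall1, Siglech, Gpr34 and Olfml3, mark resting microglia, and they were chosen by symbol from the 48440 genes of a mouse brain RNA-seq table. Each symbol occurred once in the table. Brain RNA was poly(A)-selected and sequenced in 18 libraries that form 3 groups of 6. The first group holds 5xFAD mice that received a fucose diet for 1 month, the second 5xFAD mice on a control diet for 1 month, and the third WT mice on a control diet for 1 month. 5xFAD is a transgenic mouse line in which human genes with mutations of familial Alzheimer's disease are expressed from elements of the Thy1 promoter, mainly in neurons, so that amyloid plaques form. Fucose is a monosaccharide found on the sugar chains of many glycoproteins. The labels give no age, brain region, sex or batch, and they do not say that the libraries of a group come from separate animals, so p-values measure the spread between these libraries. WT mice on fucose were not analysed here.

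Microglia are the resident macrophages of the brain. In the healthy brain they survey their surroundings with motile processes and carry a set of identity genes that other macrophages express weakly or not at all. The set includes receptors for signals from neurons and damaged cells, surface adhesion proteins, a transcription factor and a secreted protein. Around amyloid plaques mouse microglia are known to take on another state, in which many identity genes are lower per cell and genes such as Cst7, Clec7a, Itgax and Trem2 are higher.

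The deposited values are normalized counts, which are gene counts divided by 1 size factor per library, and the libraries held 31.45 to 44.23 M reads. Thy1, whose promoter drives the transgenes, had 103200 to 152500 normalized counts in 5xFAD fucose libraries and 113500 to 158000 in 5xFAD control libraries, against 40380 to 58900 in WT control libraries, so each library matched its genotype label. In each group 1 library of 6 had little Xist, the RNA of the inactive X chromosome (0, 6.60 and 11.7 normalized counts in the order 5xFAD fucose, 5xFAD control and WT control, against at least 7251 in all others). 5xFAD fucose replicate 1 stood apart from the other 5 libraries of its group. It was the lowest of 6 for 8 of the 9 genes, while its Thy1 (134500), Csf1r (7383) and Gfap (76650 normalized counts) lay within the range of the other 5, and calls that rest on it are given with and without it. All 9 genes passed the filter on low counts, as did 18808 genes in all. A gene is called where its adjusted p (limma, Benjamini-Hochberg over all 18808 genes) is under 0.05.

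The 9 genes lie on 6 chromosomes of the mm10 build, and 2 pairs of them are neighbours. P2ry13 (ENSMUSG00000036362.2, chromosome 3, 59207892 to 59210882, minus strand) and P2ry12 (ENSMUSG00000036353.13, chromosome 3, 59216272 to 59262871, minus strand) lie 5389 bases apart, both inside the gene Med12l on the opposite strand. Tmem119 (ENSMUSG00000054675.5, chromosome 5, 113793729 to 113800516, minus strand) and Selplg (ENSMUSG00000048163.13, chromosome 5, 113818536 to 113832644, minus strand) lie 18019 bases apart. Cx3cr1 (ENSMUSG00000052336.6) spans chromosome 9, 119901616 to 120068283, on the minus strand. Gpr34 (ENSMUSG00000040229.11, chromosome X, 13632089 to 13640858, plus strand) lies inside Cask, which runs on the opposite strand. Siglech (ENSMUSG00000051504.18) is at chromosome 7, 55768178 to 55778925, plus strand, and Sall1 (ENSMUSG00000031665.7) at chromosome 8, 89027235 to 89044162, minus strand. Olfml3 (ENSMUSG00000027848.12, chromosome 3, 103722222 to 103738001, minus strand) lies 1813 bases from Hipk1. The strandedness of counting is not given in the sources used here, but exon overlap is small: P2ry12 shares 9 exon bases (0.35%) with Med12l, Cx3cr1 shares 78 (1.73%) with the antisense gene Gm33858, and the other 7 genes share none.

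Promoter windows are shown for the receptors Cx3cr1, P2ry12 and P2ry13, from 250 bases before to 50 bases after the start of transcription, from RefSeq on GRCm38.p6. They varied together over all libraries (Pearson's r after subtracting group means between 0.78 and 0.898), but other genes were as close. Gpr34, with no window at hand, was closer to P2ry12 (0.856) than P2ry13 was (0.835). Sall1 and Siglech, whose windows are not printed, had 0.816 and 0.782 with Cx3cr1, where P2ry13 had 0.78. With P2ry12 they had 0.827 and 0.805. These r therefore do not single out P2ry13, whose window holds the only match given below. Without the fucose library that stood apart, P2ry13 had 0.503 with Cx3cr1 and 0.517 with P2ry12. The closest pair was then P2ry12 with Siglech (0.827), whose window is not printed. The close variation of the receptors shown therefore rests in part on that library. The windows are chr9:120068247-120068546 for Cx3cr1, chr3:59262936-59263235 for P2ry12 and chr3:59210833-59211132 for P2ry13, each printed 5′ to 3′ on the minus strand. Capitals mark the letters GAGGAAG, a core of the sites bound by PU.1, the transcription factor that macrophages depend on (its gene is Spi1).
Cx3cr1: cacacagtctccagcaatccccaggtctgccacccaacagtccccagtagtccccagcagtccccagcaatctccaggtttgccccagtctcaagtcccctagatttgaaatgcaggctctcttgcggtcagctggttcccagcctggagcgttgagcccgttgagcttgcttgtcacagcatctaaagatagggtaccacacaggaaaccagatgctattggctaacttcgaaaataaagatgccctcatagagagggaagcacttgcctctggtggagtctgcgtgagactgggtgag
P2ry12: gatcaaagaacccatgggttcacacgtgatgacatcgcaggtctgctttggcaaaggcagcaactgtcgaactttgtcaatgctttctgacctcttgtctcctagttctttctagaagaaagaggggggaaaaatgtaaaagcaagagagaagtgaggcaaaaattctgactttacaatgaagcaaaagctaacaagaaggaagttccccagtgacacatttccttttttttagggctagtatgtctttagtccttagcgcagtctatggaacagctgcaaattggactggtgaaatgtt
P2ry13: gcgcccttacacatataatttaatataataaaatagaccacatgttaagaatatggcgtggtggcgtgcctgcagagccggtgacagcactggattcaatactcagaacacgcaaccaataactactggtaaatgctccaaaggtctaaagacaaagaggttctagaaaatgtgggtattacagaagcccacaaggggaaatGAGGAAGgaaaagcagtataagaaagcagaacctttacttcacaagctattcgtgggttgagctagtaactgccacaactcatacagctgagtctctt
GAGGAAG was searched on both strands and was present in 4477 of 32851 RefSeq promoter windows (13.63%). Among 8 windows of 6 of the genes it was found in 1, that of P2ry13, 48 bases before the start. No window was at hand for Tmem119, Selplg and Gpr34. A match is a run of letters and not a measured binding site.

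In 5xFAD brains on control diet 4 of the 9 genes rose against WT brains, Cx3cr1, Selplg, Siglech and Gpr34, by between 1.48-fold and 2.05-fold, and none fell. Over all genes tested 1.97% were called higher in this comparison and 0.165% lower. The same 4 were the genes whose 6 5xFAD control libraries all lay above the highest WT library, which held for 1.8% of all genes. The median log2 fold change was 0.57 over the 9 genes and -0.0078 over all genes. P2ry12, P2ry13, Tmem119, Sall1 and Olfml3 also had positive log2 fold changes, between 0.19 and 0.83, and were not called. In bulk tissue fewer or more cells of a type and less or more RNA per cell cannot be told apart.

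**Figure D1:**
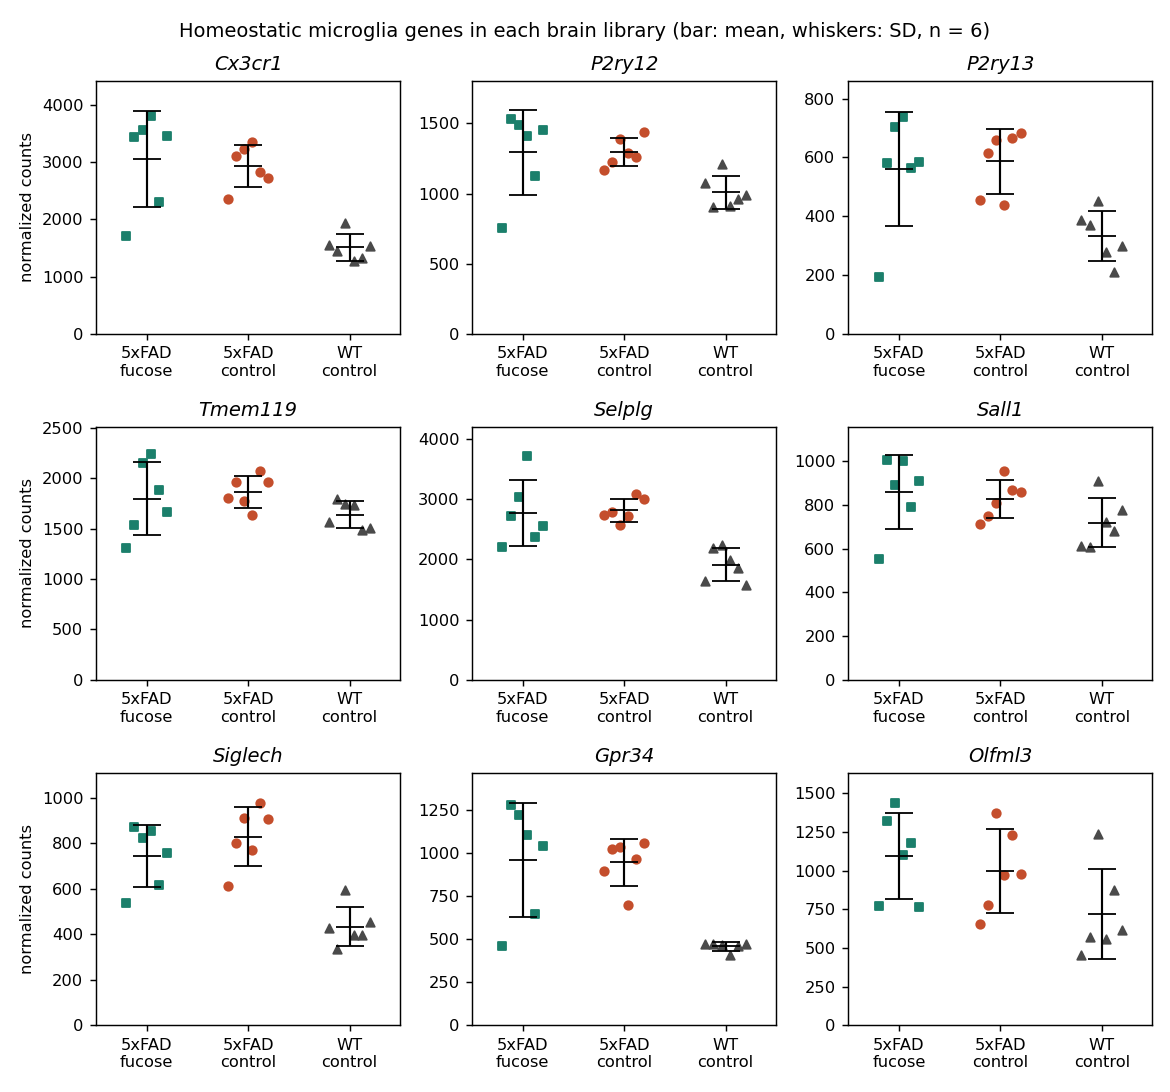
Normalized counts of the 9 genes in each of 18 brain libraries, with groups along the x axis, 1 panel per gene, points for libraries, a bar for the mean and whiskers for the SD (n = 6). In the panels of Cx3cr1, Selplg, Siglech and Gpr34 all 6 5xFAD control libraries lie above the highest WT control library, and 5xFAD fucose replicate 1 (leftmost point) is the lowest of its group in every panel except that of Olfml3, where replicate 6 is slightly lower.

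Among the receptors, Cx3cr1, which binds the neuronal chemokine fractalkine, had 1706, 3451 and 3809 normalized counts (lowest, median and highest) in 5xFAD fucose libraries, 2353, 2972 and 3347 in 5xFAD control libraries, and 1272, 1489 and 1931 in WT control libraries. Every 5xFAD control library was above every WT library, while the lowest 5xFAD fucose library lay inside the WT range. The log2 fold change of 5xFAD control against WT control was 0.96 ± 0.16 (SE), a 1.95-fold difference (adjusted p = 0.00105, limma). Gpr34, a receptor for lysophosphatidylserine, had 463, 1075 and 1280 normalized counts in 5xFAD fucose libraries, 699, 995 and 1058 in 5xFAD control libraries, and 406, 469.5 and 472.5 in WT control libraries. WT libraries were tightly grouped for Gpr34, with a coefficient of variation of 5.66%, against 34.4% in the 5xFAD fucose group (23.5% without replicate 1) and 14.2% in the 5xFAD control group. Its log2 fold change of 5xFAD control against WT control was 1.03 ± 0.19, the largest of the 9 genes (2.05-fold, adjusted p = 0.00205).

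P2ry12, the ADP receptor by which microglia extend their processes towards injury, had 753, 1434 and 1532 normalized counts in 5xFAD fucose libraries, 1165, 1275 and 1437 in 5xFAD control libraries, and 902.5, 976 and 1211 in WT control libraries. 5 of 6 5xFAD control libraries were above the highest WT library, but the difference was small. At 0.36 ± 0.13 (1.29-fold) its log2 fold change was not called (adjusted p = 0.229, limma). The neighbouring P2ry13, a second ADP receptor, had 194, 583 and 737 normalized counts in 5xFAD fucose libraries, 439, 638 and 684 in 5xFAD control libraries, and 211, 335 and 450 in WT control libraries. 2 of the 5xFAD control libraries (439 and 454) stood beside the highest WT library for P2ry13. Its log2 fold change of 0.83 ± 0.26 (1.78-fold) was as large as that of called genes, with a wider error, and was not called (adjusted p = 0.137). Both calls turned on 1 library of the third group, which shares the estimate of spread: without 5xFAD fucose replicate 1 the same fold changes had adjusted p = 0.0291 for P2ry12 and 0.0027 for P2ry13.

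Among the surface proteins, Selplg, a glycoprotein that selectins bind, had 2200, 2639 and 3716 normalized counts in 5xFAD fucose libraries, 2580, 2758 and 3083 in 5xFAD control libraries, and 1567, 1920 and 2238 in WT control libraries. The 5xFAD control and WT groups did not overlap, and the log2 fold change was 0.57 ± 0.11 (1.48-fold, adjusted p = 0.00238, limma). Siglech, a receptor of the Siglec family that signals through the adaptor encoded by Tyrobp, had 537, 792 and 871 normalized counts in 5xFAD fucose libraries, 612, 855 and 978 in 5xFAD control libraries, and 337, 412 and 595 in WT control libraries. Siglech had the smallest p of the 9 genes, with groups that did not overlap between 5xFAD control and WT. Its log2 fold change was 0.94 ± 0.14 (1.92-fold, adjusted p = 0.000155). Tmem119, a transmembrane protein used as a microglia marker, had 1310, 1775 and 2238 normalized counts in 5xFAD fucose libraries, 1632, 1884 and 2070 in 5xFAD control libraries, and 1491, 1654 and 1795 in WT control libraries. Its groups overlapped, and it had the smallest log2 fold change of the 9 genes, 0.19 ± 0.11 (1.14-fold, 95% interval 0.977 to 1.33, adjusted p = 0.537).

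Sall1, a zinc finger transcription factor that maintains microglial identity in mice, had 554, 900 and 1008 normalized counts in 5xFAD fucose libraries, 713, 836 and 955 in 5xFAD control libraries, and 608.5, 703 and 910 in WT control libraries. The groups overlapped over most of their range, and the log2 fold change of 5xFAD control against WT control was 0.21 ± 0.13 (1.15-fold, 95% interval 0.957 to 1.39, adjusted p = 0.587, limma). Olfml3, a secreted olfactomedin-domain protein, had 768, 1140 and 1435 normalized counts in 5xFAD fucose libraries, 655, 976 and 1371 in 5xFAD control libraries, and 454, 595 and 1239 in WT control libraries. It was the most variable of the 9 genes in WT control libraries (coefficient of variation 40.4%), and its highest WT value, in WT control replicate 3, exceeded all but 1 of the 5xFAD control libraries. Its log2 fold change was 0.51 ± 0.24 (1.43-fold, adjusted p = 0.42).

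On fucose, 5xFAD brains differed from WT brains on control diet at the same 4 genes, all of them higher. The log2 fold changes of 5xFAD fucose against WT control were 0.97 ± 0.16 for Cx3cr1 (adjusted p = 0.00103, limma), 0.98 ± 0.19 for Gpr34 (0.0039), 0.77 ± 0.14 for Siglech (0.00172) and 0.53 ± 0.11 for Selplg (0.00614). Over all genes 1.91% were called higher in this comparison, and the median log2 fold change was 0.65 over the 9 genes and -0.0101 over all genes. The WT libraries are the same as in the first comparison, so the agreement of both sets of calls rests in part on shared values. In each of the 4 genes 5 of 6 5xFAD fucose libraries were above the highest WT library, the exception being replicate 1, so none of the 9 separated the groups fully (1.41% of all genes did, on the higher side). P2ry12, P2ry13, Tmem119, Sall1 and Olfml3 had log2 fold changes of 0.33, 0.68, 0.11, 0.24 and 0.65, none of them called (adjusted p between 0.26 and 0.785). Without 5xFAD fucose replicate 1 the values became 0.47 for P2ry12 (adjusted p = 0.00472) and 0.96 for P2ry13 (0.00103), which makes 6 genes called.

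**Figure D2:**
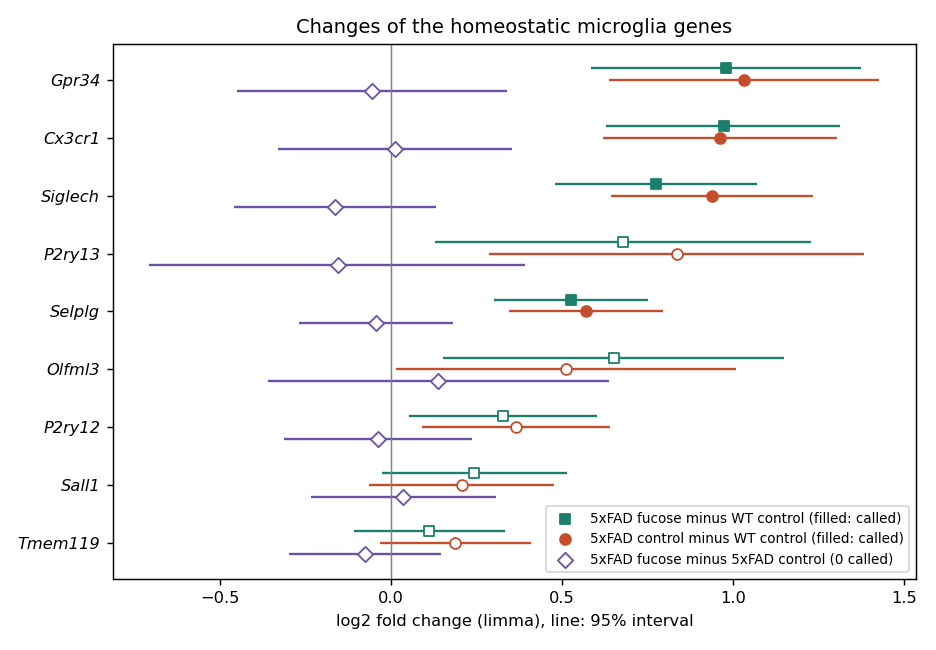
Log2 fold changes of the 9 genes from limma (x axis) with 95% intervals as lines, for 5xFAD fucose against WT control (squares), 5xFAD control against WT control (circles) and 5xFAD fucose against 5xFAD control (diamonds), where filled symbols are called. Gpr34, Cx3cr1, Siglech and Selplg are called in both comparisons with WT, and every diamond lies near 0, between -0.16 for Siglech and 0.14 for Olfml3.

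Between 5xFAD fucose and 5xFAD control brains none of the 9 genes was called. Log2 fold changes ran from -0.16 ± 0.14 for Siglech to 0.14 ± 0.24 for Olfml3, and adjusted p from 0.852 to 0.992 (limma). No gene at all was called in this comparison (0.0% of those tested, 1005 at an unadjusted p under 0.05), and none of the 9 had an unadjusted p under 0.05. edgeR's quasi-likelihood test and DESeq2 on the recovered reads also called 0 genes. The 95% intervals of fold change, unadjusted and with the spread estimated from all 18 libraries, show what the data leave possible. For Cx3cr1 the interval was 0.795 to 1.28, for P2ry12 0.805 to 1.18, for Tmem119 0.814 to 1.11 and for Selplg 0.83 to 1.13. Differences within such bounds remain possible, and the bounds are not limits of detection. The widest intervals were 0.613 to 1.31 for P2ry13 and 0.78 to 1.55 for Olfml3. For 8 of the 9 genes the coefficient of variation was larger in 5xFAD fucose than in 5xFAD control libraries, the exception being Olfml3 (25.4% in fucose, 26.9% in control). Part of this spread came from 5xFAD fucose replicate 1: for Cx3cr1 the value was 27.5% in 5xFAD fucose libraries, 17.5% without that library and 12.6% in 5xFAD control libraries. Without it the coefficient stayed larger than in 5xFAD control libraries for 5 of the 9, Cx3cr1, P2ry12, Tmem119, Selplg and Gpr34.

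The libraries at the edges of each group were often the same for several genes. In 5xFAD fucose replicate 1 P2ry13 was at 194 normalized counts, against 565 to 737 in the other 5 fucose libraries and 211 to 450 in WT libraries. Gpr34 was at 463 in that library, beside a WT range of 406 to 472.5, and P2ry12 at 753 lay below the lowest WT library. Among genes outside the 9, Itgam (227) and Aif1 (234 normalized counts) were also low in it, and genes of plaque-associated microglia were low against the other 5 fucose libraries but above WT, such as Clec7a at 224 (556 to 767 in the other 5, 23.7 to 47.0 in WT). The 9 tested genes of macrophages at the borders of the brain had a geometric mean of 110.1 normalized counts in that library, the highest of the 18 (59.8 to 110.1 in 5xFAD fucose, 31.5 to 88.6 in 5xFAD control and 45.3 to 82.1 in WT control libraries). Whether this bears on the low values was not tested. At the other end, WT control replicate 3 was the highest WT library for 7 of the 9 genes.

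The changes of the 9 genes were then set against those of genes carried by all macrophage-lineage cells. An index was taken as the mean log2(normalized count + 1) of 12 genes, Aif1, Itgam, Itgb2, Ptprc, Spi1, Irf8, Fyb, Cd53, Laptm5, Fcer1g, Tyrobp and Coro1a, which encode surface receptors, adaptors, cytoskeletal proteins and transcription factors of myeloid cells. Some of the 12, such as Tyrobp and Fcer1g, are known to be higher per cell in plaque-associated microglia. The index, as a geometric mean, was 635 to 1076 normalized counts in 5xFAD fucose libraries, 797.5 to 1142 in 5xFAD control libraries and 357 to 454 in WT control libraries. Its log2 difference from WT control was 1.14 in 5xFAD fucose and 1.21 in 5xFAD control libraries. 10 of the 12 genes were called higher in each of these comparisons, with Coro1a called in neither.

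Because the index rose, a gene whose level did not change falls relative to it: over all genes tested the median log2 difference relative to the index was -1.22 in 5xFAD control against WT control libraries, and 85.3% of genes were lower at a 2-sided exact permutation p under 0.05. The 9 genes are described against that background, with a median of -0.64. At the same threshold 5 of the 9 were lower relative to the index (27 such tests of the 9 genes in all, unadjusted), a count that shows nothing particular to them beside that share. The smallest p that 6 against 6 libraries allow is 0.00216. Tmem119 was at 2.04 times the index in 5xFAD control libraries and 4.15 times in WT control libraries, a log2 difference of -1.03 (exact p = 0.00216). Sall1 was at 0.901 times the index in 5xFAD control libraries and 1.81 times in WT control libraries (-1.01, exact p = 0.00216). P2ry12 was at 1.42 times the index in 5xFAD control libraries and 2.55 times in WT control libraries (-0.85, exact p = 0.00216). Selplg, which was called higher in level, still rose less than the index, at 3.08 times in 5xFAD control and 4.81 times in WT control libraries (-0.64, exact p = 0.00216). For these 4 genes no 5xFAD control library overlapped any WT library, as was so for 68.4% of all genes, so this separation is nothing particular to them. Olfml3 was lower by a log2 difference of -0.70 with overlapping groups (exact p = 0.0281, and 0.0519 without WT control replicate 3 or 0.0584 without 5xFAD control replicate 1).

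The other 4 genes did not pass this test. Cx3cr1 was at 3.19 times the index in 5xFAD control libraries and 3.80 times in WT control libraries (-0.25, exact p = 0.169). Gpr34 was at 1.03 times in 5xFAD control and 1.17 times in WT control libraries (-0.18, exact p = 0.221). The log2 differences of Siglech and P2ry13 were -0.28 (exact p = 0.128) and -0.38 (exact p = 0.123). These p-values do not show that the 4 genes follow the index exactly. P2ry13 spread over more than 1 log2 unit among WT libraries, and without WT control replicate 5 it passed, at -0.51 (exact p = 0.0325).

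In 5xFAD fucose against WT control libraries Tmem119 (-1.03), Sall1 (-0.89), P2ry12 (-0.81) and Selplg (-0.61) had an exact p of 0.00216 each and groups that did not overlap. Over all genes the median relative difference there was -1.15, with 83.8% lower at p under 0.05 and 60.9% without overlap. Siglech was lower by -0.36 (exact p = 0.0455), a result that was lost in 8 of 12 fits without 1 library, with the 5-gene index (exact p = 0.34) and with Csf1r as the index (-0.21, exact p = 0.193). Olfml3 differed by -0.49 (exact p = 0.0823, and 0.0476 without WT control replicate 1 or 4) and P2ry13 by -0.46 (exact p = 0.123, and 0.0325 without WT control replicate 5). Between 5xFAD fucose and 5xFAD control libraries the relative differences lay between -0.088 and 0.21, with no exact p under 0.05 (1.98% of all genes had one, in either direction). The choice of index mattered for some genes. With Csf1r alone in place of the 12 genes, an alternative chosen after seeing the data, Tmem119, Sall1, P2ry12 and Selplg were lower in 5xFAD control than in WT control libraries, by -0.66, -0.64, -0.49 and -0.28 (exact p between 0.00216 and 0.0216). Cx3cr1, Siglech and Gpr34 then turned to 0.11, 0.087 and 0.18, and Olfml3 to -0.34 (exact p = 0.253). Csf1r, one of the further homeostatic genes below, itself rose by a log2 fold change of 0.85 there. A gene whose level did not change thus falls relative to Csf1r too. The share of all genes that were lower is not given for Csf1r or the 5-gene index. The lower values with these indices therefore show nothing particular to the genes named.

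**Figure D3:**
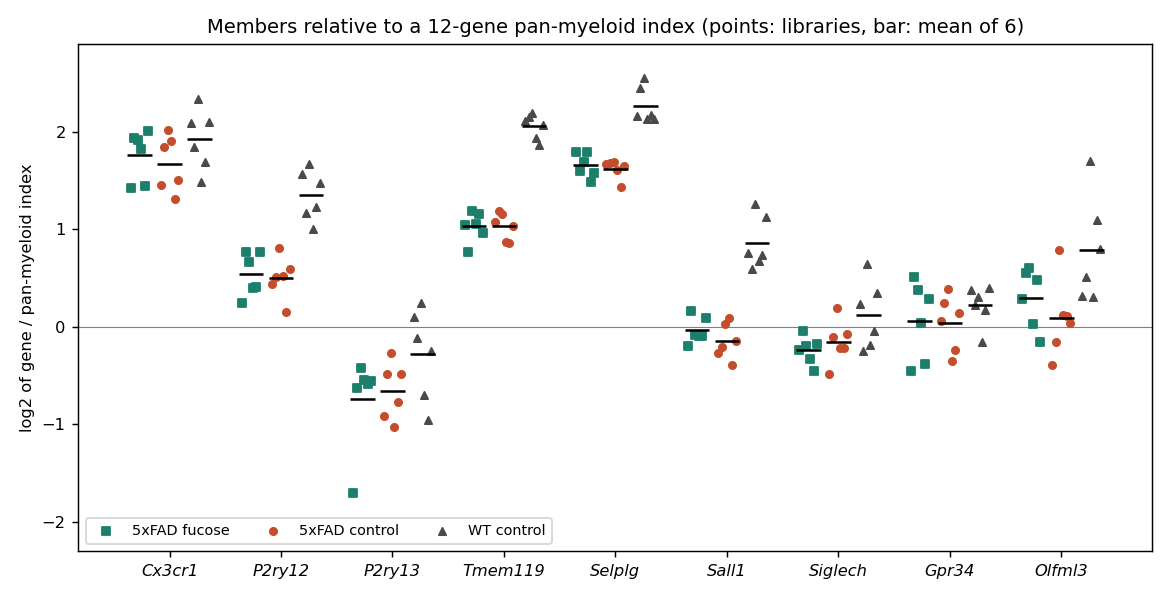
Log2 of each gene over the 12-gene myeloid index (y axis) in the 18 libraries, with 5xFAD fucose, 5xFAD control and WT control points side by side for each gene and a bar for the mean of 6. For P2ry12, Tmem119, Selplg and Sall1 every 5xFAD library lies below every WT control library, as also held for 68.4% of all genes in 5xFAD control and 60.9% in 5xFAD fucose libraries, and for Cx3cr1, P2ry13, Siglech, Gpr34 and Olfml3 the groups overlap.

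Per kilobase of exon the order of the 9 genes also differed between genotypes. Tmem119 had the highest level in all groups, 777 ± 156 normalized counts per kb in 5xFAD fucose, 807 ± 68.9 in 5xFAD control and 709 ± 58.1 in WT control libraries (SD, n = 6). In WT control libraries it was followed by Selplg (448), P2ry12 (396), Cx3cr1 (335), Gpr34 (219.5), Sall1 (137), P2ry13 (132), Siglech (128.5) and Olfml3 (117 per kb). The last 4 of that order did not differ beyond their spread, since a gene exceeded the next in only 3 or 4 of 6 libraries, and Selplg was above P2ry12 in 4 of 6. In 5xFAD control libraries the order was Tmem119, Selplg (659), Cx3cr1 (651), P2ry12 (509), Gpr34 (453), Siglech (245), P2ry13 (232), Olfml3 (162) and Sall1 (157 per kb). Selplg and Cx3cr1 could not be ordered there (3 of 6 libraries each way), nor could Siglech and P2ry13 (4 of 6) or Olfml3 and Sall1 (2 of 6). The 5xFAD fucose order was Tmem119, Cx3cr1 (677), Selplg (648), P2ry12 (508.5), Gpr34 (460), P2ry13 (222), Siglech (220), Olfml3 (178) and Sall1 (163 per kb), and there only Selplg over P2ry12 and Gpr34 over P2ry13 held in 6 of 6 libraries, while the other neighbours in the order exceeded the next in 3 to 5 of 6. Lengths are the merged exons of GENCODE M21, in which Cx3cr1 has a later version and a further end than in the deposited table.

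Per kb of exon Cx3cr1 and P2ry12 exchanged places between 5xFAD and WT libraries. This order depends on the exon lengths used, 4505 bases for Cx3cr1 and 2546 for P2ry12. Before division by length Cx3cr1 was higher in WT control libraries too, at 1272 to 1931 normalized counts against 902.5 to 1211 for P2ry12. The lengths do not affect how the ratio differs between groups. The ratio of Cx3cr1 to P2ry12 per kb was 1.16 to 1.53 in 5xFAD fucose libraries (mean 1.32 ± 0.12), 1.07 to 1.47 in 5xFAD control libraries (1.28 ± 0.16) and 0.779 to 0.905 in WT control libraries (0.844 ± 0.057, SD, n = 6 each). Per kb Cx3cr1 was thus above P2ry12 in 12 of 12 5xFAD libraries and below it in 6 of 6 WT libraries. The ratio in 5xFAD fucose replicate 1 lay in the 5xFAD range although both of its levels were low. Siglech to Sall1 was 1.21 to 1.51 in 5xFAD fucose, 1.25 to 1.75 in 5xFAD control and 0.857 to 1.082 in WT control libraries. For the neighbours Selplg and Tmem119 the ratio averaged 0.842 ± 0.103 in 5xFAD fucose, 0.819 ± 0.047 in 5xFAD control and 0.63 ± 0.056 in WT control libraries, and the 5xFAD control and WT ranges did not overlap. P2ry13 to P2ry12 was 0.425 ± 0.099 in 5xFAD fucose, 0.455 ± 0.072 in 5xFAD control and 0.331 ± 0.068 in WT control libraries, with overlapping ranges. These 4 pairs were chosen after their values were seen and are given as a description, with no test.

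**Figure D4:**
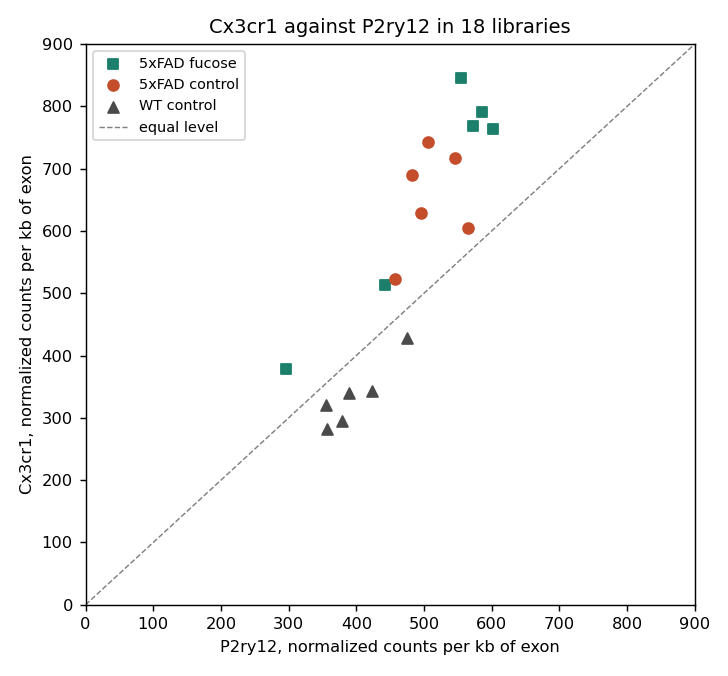
Cx3cr1 (y axis) against P2ry12 (x axis), both in normalized counts per kb of exon, in each of the 18 libraries, with a dashed line where both are equal. The 12 5xFAD libraries, on fucose or control diet, lie above the line and the 6 WT control libraries below it. The place of the line among the points depends on the exon lengths used.

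Within groups the 9 genes varied together. After subtracting group means, Pearson's r of log2 values over the 18 libraries was between 0.285 and 0.898 in the 36 pairs, with a median of 0.597. The values of 1 library share its size factor and its tissue piece. Without 5xFAD fucose replicate 1 the median was 0.426 and the range -0.091 to 0.827, so the common variation rested in part on that library. Over all 18 libraries Cx3cr1 and P2ry12 were the closest pair (0.898), and P2ry12 was the closest fellow of Cx3cr1, P2ry13, Sall1 and Gpr34. Without that library the pair had 0.785 and the closest was P2ry12 with Siglech (0.827). P2ry12 then remained the closest fellow of Cx3cr1 and Gpr34, while that of Sall1 was Siglech (0.767), and P2ry13 was as close to Tmem119 as to Siglech (0.583 each). Tmem119 and Olfml3 were the least alike (0.285), and Tmem119 had a median r of 0.463 with the other 8 genes, which became 0.122 without 5xFAD fucose replicate 1. Among 15289 other genes with a mean over 1 CPM (reads of the gene per M reads), the 8 whose values were most like the mean of the 9 were Cxcl5, Msmo1, Lat2, Itgam, 2810459M11Rik, Irak3, Lst1 and Usp13. Their r lay between 0.814 for Usp13 and 0.871 for Cxcl5. Without 5xFAD fucose replicate 1 it was 0.80 for Irak3 and 0.558 for 2810459M11Rik, with the other 6 between. For these 8 genes the subtracted group means still included that library, unlike for the pairs above. Their r can therefore still hold part of its effect and cannot be set beside those of the pairs. The list was picked as the highest of many values, which sets these r high, and is given as a description.

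Other genes of resting microglia rose as well. Of 18 further homeostatic genes 9 were called higher and 0 lower in 5xFAD control against WT control libraries, with a median log2 fold change of 0.74. In 5xFAD fucose against WT control libraries 10 were called higher, with a median of 0.55. Vsir, an inhibitory receptor, had a log2 fold change of 1.02 ± 0.10 in 5xFAD control against WT control (adjusted p = 4.15e-07, limma). Csf1r, whose signals microglia need to survive, had 0.85 ± 0.08 (2.36e-07). Of 16 genes of plaque-associated microglia 15 were called higher, with a median of 1.64, among them Itgax (4.70), Clec7a (4.09) and Trem2 (2.55).

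Ligands and partners of the 9 genes were also followed. Of 12 tested genes of a list of 14, 5 were called higher and 0 lower in 5xFAD control against WT control libraries, where 1.97% of all genes were called higher. The list shares genes with others above, so its counts are not separate results. Tyrobp is also in the index, Csf1 is among the genes of plaque-associated microglia, and Entpd1 and Tgfbr1 are among the further homeostatic genes. Tyrobp, the adaptor of Siglech, had a log2 fold change of 2.34 ± 0.20 (adjusted p = 4.74e-07, limma). Of 6 genes of TGF-beta signalling, on which the identity program of mouse microglia depends, 2 were called, Tgfb1 (0.99 ± 0.17, adjusted p = 0.000535) and the receptor gene Tgfbr2 (0.88 ± 0.11, 6.70e-06). Tgfbr1 (0.37), Nrros (0.31), Smad2 (0.15) and Smad3 (-0.0545) were not called (adjusted p between 0.159 and 0.917). Csf1, a ligand of Csf1r, had 0.93 ± 0.10 (1.15e-06), and Entpd1, an enzyme that breaks down ATP and ADP, 0.52 ± 0.12 (0.0104). Cx3cl1, the ligand of Cx3cr1, had a log2 fold change of -0.27 ± 0.10 and was not called (0.245). The selectin genes Selp and Sele were under the filter on low counts, with at most 12.6 normalized counts in any library. In 5xFAD fucose against WT control libraries 7 of the 12 were called higher, Tgfbr1 (0.47 ± 0.12, 0.0458) and Nrros (0.77 ± 0.18, 0.0216) in addition.

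Of 20 paralogs of the 9 genes 15 were tested, and 4 were called higher and 0 lower in 5xFAD control against WT control libraries. 3 of the 4 are lectins of the Siglec family, Cd33 (0.84 ± 0.13, adjusted p = 0.000209, limma), Siglecf (2.07 ± 0.36, 0.000842) and Cd22 (3.56 ± 0.65, 0.00248). The fourth was the UDP receptor gene P2ry6 (0.75 ± 0.15, 0.00254), which is also among the further homeostatic genes above. The large fold changes of Siglecf and Cd22 rest on low WT control levels, 12.4 ± 6.5 and 15.5 ± 14.4 normalized counts (mean ± SD). In 5xFAD control libraries they were at 52.7 ± 20.5 and 119.9 ± 48.9. P2ry14, which lies beside P2ry13, had -0.27 ± 0.17 and was not called. Of 21 neighbouring or overlapping genes 0 were called in any of the 3 comparisons. Med12l, the host of P2ry12 and P2ry13, had a log2 fold change of -0.70 ± 0.21 (adjusted p = 0.10), opposite in sign to both.

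Markers of other cells that can carry some of the 9 genes showed no called change. Of 10 genes of border macrophages 9 were tested and 0 called in any comparison, with a median log2 fold change of -0.045 in 5xFAD control against WT control libraries. In 5xFAD fucose libraries the median was 0.34 against WT control, with all 9 between 0.11 and 1.14, and 0.24 against 5xFAD control. Their part in the values of the 9 genes in fucose libraries was not tested. Summed over the 10 genes, they had 1189 to 1751 normalized counts in 5xFAD fucose, 678 to 1435 in 5xFAD control and 952 to 1514 in WT control libraries. Of 9 monocyte and neutrophil genes 5 were tested and 0 called, with sums of 1244 to 2219 in 5xFAD fucose, 1175 to 1742 in 5xFAD control and 1396 to 1741 in WT control libraries. Most of each sum was Fn1, since S100a8, S100a9, Plac8 and Ly6c2 had group means of at most 22.7 normalized counts. Among the defining genes of those cells Ly6g was at 0 in all libraries and Ccr2 at no more than 17.7 normalized counts. Siglech also marks plasmacytoid dendritic cells, and of 7 genes of those cells 5 were tested and 0 called. Their sums were 6277 to 8312 in 5xFAD fucose, 6551 to 9771 in 5xFAD control and 6527 to 8521 in WT control libraries, so that these ranges overlap. Most of each sum was Tcf4, since Bst2, Cox6a2, Irf7 and Ly6d had group means of at most 583, 515, 298 and 26.5 normalized counts. The overlap of sums therefore says little about the other genes. In 5xFAD control against WT control libraries log2 fold changes ran from -2.07 for Ly6d to 0.86 for Bst2. Of 8 lymphocyte genes 5 were tested and 0 called, with sums of 148 to 1028, 137 to 786 and 146 to 1446 in the same order of groups. Cd4 had group means of 375, 222 and 404 normalized counts in that order (SD 352, 261 and 525). Cd8a, Cd3e and Cd79a had group means of at most 26.7, so these sums say little about them. Among 8 genes each of neurons, oligodendrocytes and endothelial cells 0 were called. Of 8 astrocyte genes Gfap alone, an intermediate filament, was called higher (log2 fold change 2.55 in 5xFAD control against WT control).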

How the data were processed

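The authors deposited normalized counts, a signal per gene made by dividing gene counts by 1 size factor per library, under a name that calls them raw. Whole reads were recovered from them, since 100% of values were multiples of 1 read's value within 0.001 reads. Tools named in the submitters' processing notes, with no roles, are featureCounts 2.0.3, HISAT2 2.2.1, DESeq2 2.11.40.8 and Trimmomatic 0.39, with the build mm10. No annotation or strandedness is given in the sources used here. 48058 of 48440 identifiers occur in GENCODE M21, and 8 of the 9 genes have identical coordinates there.

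Libraries were grouped by genotype and diet labels. The median depth was 38.93 M reads, and a count of 0 allows up to 3 reads (2.66 to 3.72 normalized counts, counting error only). Replicates of a group differed beyond sampling noise (chi-square per degree of freedom 14.9 to 70.1 in 45 pairs). The test was limma 3.58.1 with trend and robust moderation on log2(normalized count + 1), in 1 fit of 18 libraries, after filterByExpr of edgeR 4.0.16 (minimum count 10). The p-values of 18808 genes were adjusted by Benjamini-Hochberg and called at 0.05. Fold changes come from mean log2 values. Relative levels were compared with exact permutation tests of 924 arrangements. Settings tried instead were edgeR with TMM or RLE, DESeq2 1.42.0, TMM-scaled log values, voom, other pseudocounts, no filter, no trend, fits of 2 groups, a replicate block, other indices and leaving out libraries. Scripts were tested on simulated data. The 9 genes, the other lists and their tests were chosen with earlier results of these data known. Named genes are all 9, up to 4 of each other list by smallest p in 5xFAD control against WT control, genes that a count turns on, neighbours, paralogs and the 8 most alike, apart from a few that are left out. 2 stray cells of the table were not used. Levels relative to a mean of 12 myeloid genes were compared with exact permutation tests over libraries, for the 9 genes and, as background, for every gene tested.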

Additional observations from a re-analysis of the deposited data

Results flagged for a closer look

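In 27 sets of values (9 genes in 3 groups of 6) 2 libraries stood apart by a gap to the nearest of the others that exceeded Dixon's 95% critical value for 6 samples, as a share of the group's range. Chance flags about 1 in 20 such sets. P2ry13 in 5xFAD fucose replicate 1 was the lowest of its group, with a gap of 0.683 of the range (194 normalized counts, against 565 to 737 in the other 5). Gpr34 in WT control replicate 4 was the lowest of its group, with a gap of 0.864 of a narrow range (406 normalized counts, against 463.5 to 472.5 in the other 5). Gpr34 is X-linked, and this library is the WT library with little Xist (11.7 normalized counts). Neither of the other libraries with little Xist was the lowest of its group for Gpr34. 5xFAD fucose replicate 5 was at 647 (group range 463 to 1280) and 5xFAD control replicate 5 at 965 (group range 699 to 1058 normalized counts). Whether the low value in WT control replicate 4 goes with its low Xist was not tested.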

How the results depend on the processing

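Cx3cr1, Selplg, Siglech and Gpr34 kept their calls against WT control in both 5xFAD groups under every alternative run, and none of the 9 genes was called between 5xFAD fucose and 5xFAD control under any. The number of genes called was 402 in 5xFAD control against WT control (339 to 455 leaving out libraries in turn, 562 with DESeq2) and 376 in 5xFAD fucose against WT control (276 to 450, 507 with DESeq2). Between the diets it was 0, and 1 with no filter, Gm21859 (at 0 in fucose libraries and up to 15.1 normalized counts in control libraries). The number of the 9 genes called against WT was 4, with up to 6 under alternatives. P2ry13 was called with DESeq2 (adjusted p = 0.0132 for 5xFAD control and 0.0332 for 5xFAD fucose) and P2ry12 and P2ry13 in a fit of 5xFAD control and WT control alone (0.0359 and 0.0114). Olfml3 was called in 5xFAD fucose against WT without WT control replicate 3 (0.0416).

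Over all genes no pairing by replicate number was seen (correlations of deviations -0.167 to 0.330, with 2, 1 and 2 of 6 libraries closest to their own number). Such correlations cannot exclude a pairing that touches few genes. Olfml3, alone of the 9 genes, was highest in replicate 3 of each group. Its values there were 1435 in 5xFAD fucose, 1371 in 5xFAD control and 1239 normalized counts in WT control libraries. With the replicate block 439 genes were called in 5xFAD control against WT, 412 in 5xFAD fucose against WT and 0 between diets, and Olfml3 became called (adjusted p = 0.0276 for 5xFAD control, 0.00395 for 5xFAD fucose), which makes 5 of the 9 genes.

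Signs of the small differences between 5xFAD fucose and 5xFAD control were not stable. Gpr34 became 0.014 with edgeR and TMM, 0.020 with RLE, 0.020 with DESeq2 and 0.050 without the libraries low in Xist, where Selplg became 0.022. Leaving out libraries gave -0.065 to 0.17 for Cx3cr1, -0.094 to 0.11 for P2ry12, -0.26 to 0.13 for P2ry13, -0.14 to 0.011 for Tmem119, -0.13 to 0.018 for Selplg, -0.016 to 0.16 for Sall1 and -0.16 to 0.14 for Gpr34. Relative to the index the ranges were -0.032 to 0.099 for P2ry12, -0.15 to 0.11 for P2ry13, -0.033 to 0.052 for Tmem119, -0.0054 to 0.066 for Selplg and -0.068 to 0.12 for Gpr34. With Csf1r as the index they were -0.12 for Cx3cr1, -0.17 for P2ry12, -0.21 for Tmem119, -0.17 for Selplg, -0.094 for Sall1 and -0.18 for Gpr34.

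Of 5xFAD fucose against WT control, the relative levels of Cx3cr1 and Gpr34 became 0.0082 and 0.015 with an index of 5 genes (Aif1, Itgam, Ptprc, Spi1 and Irf8). Olfml3 in 5xFAD control against WT no longer passed with that index (exact p = 0.0736) or with Csf1r (0.253), nor did Siglech in 5xFAD fucose against WT (exact p = 0.34 and 0.193). With Csf1r, Cx3cr1, Siglech and Gpr34 in 5xFAD control against WT became 0.11, 0.087 and 0.18. Without 1 library the exact p of Siglech was up to 0.0931 (8 of 12 fits over 0.05) and Olfml3 in 5xFAD control against WT was over 0.05 in 2 of 12. The causes were not tested.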
